A study of Homo sapiens with 12 samples.

Results

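Proteoglycans are proteins that carry long, negatively charged glycosaminoglycan chains on a core protein. Secreted core proteins such as decorin, biglycan and versican build the pericellular matrix and bind growth factors, whereas syndecans and glypicans hold heparan sulfate chains at the cell surface, where they serve as co-receptors. Serglycin is the core protein of secretory granules and is best known from blood cells. In mammary tissue the epithelium carries mainly cell-surface heparan sulfate proteoglycans, and the stroma supplies most of the small leucine-rich ones.

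The 10 genes described here encode the core proteins decorin (DCN), serglycin (SRGN), biglycan (BGN), versican (VCAN), 3 syndecans (SDC1, SDC2, SDC4), glypican-1 (GPC1), agrin (AGRN) and perlecan (HSPG2). They were found by their symbol in the array annotation, which gives them 17 of the 47323 probes and makes them 10 of 20046 annotated genes. The set had been chosen by levels measured in these same comparisons, so the members' differences between groups are given as a description. The model was fitted to all probes, and where a member is said to be called, or an interval is given for it, this marks its place in that model and is no independent test of it. Of the 10 genes, 9 passed the detection filter through 11 probes, and HSPG2 did not. SRGN, BGN, SDC2 and the second of the DCN probes passed it only through the CYT1 and CYT2 groups, since no VEC replicate detected them on both technical arrays, so that a high value in those groups was a condition of their entry.

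Gene expression was measured with Illumina bead arrays in MCF10A, a non-transformed human mammary epithelial cell line. ERBB4 is a receptor tyrosine kinase whose cytoplasmic part can be released and act on its own. The CYT1 group stably expressed this intracellular domain (ICD) in the CYT1 splice form, the CYT2 group expressed the ICD in the CYT2 form, and the VEC group carried the control vector. Every group was kept in regular medium with 10% serum. Each group had 2 biological replicates with 2 technical arrays each, which gives 12 arrays in all. Whether a group was a pool of cells or 1 clone, and which promoter drove the ICD, is not given in the sources used here. The comparisons ask which genes differ in cells with either ICD form, and which differ between the forms. CYT1 and CYT2 were set against the same VEC samples, so their differences from VEC share those samples.

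Between 17514 and 18721 probes were detected per array. Levels are normalised log2 signals, and a probe was detected where its detection p was under 0.05. The ERBB4 probe was above background on 0 of 12 arrays, so it checked neither the ICD nor the labels. All 10 basal epithelial markers on the array were detected on all 12 arrays. The root mean square log2 distance between technical arrays of 1 replicate had a median of 0.3205, against 0.3129 between arrays of different biological number and the same technical number. The 2 technical arrays of a replicate were therefore no closer to each other than to the other replicate, and the model's p-values and standard errors measure only the spread between these samples, which may be technical. Among 17356 tested probes, 2895 were higher and 3334 lower in CYT1 than in VEC, 2558 higher and 2714 lower in CYT2 than in VEC, and 35 higher and 47 lower in CYT2 than in CYT1 (limma, Benjamini-Hochberg adjusted p under 0.05). The share of calls that were higher was 46.5% in CYT1 against VEC and 48.5% in CYT2 against VEC. It fell by over 10 percentage points under median scaling, to 33.6% and 37.1%, and with the deposited log2 values, to 31.3% and 31.2%. Median scaling gave a median log2 difference over all probes of -0.13 for CYT1 and -0.11 for CYT2 against VEC, where the values used here gave -0.04 and -0.05. In CYT2 against CYT1, 42.7% of calls were higher, and 61.5% and 54.8% were with the deposited values and with quantile scaling of uncorrected signals.

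Compared with VEC, cells with either ICD form had much higher DCN and SRGN signals, moderately higher VCAN, higher BGN from a level below detection, and lower SDC1. Of the 9 tested members, 4 were called higher and 1 lower in CYT1 against VEC, beside 35.9% of all tested probes called in either direction in that comparison. The same 5 genes were called in the same directions in CYT2 against VEC, where 30.4% of all tested probes were called. In CYT2 against CYT1, 1 member, DCN, was called, beside 0.472% of all probes. Because the genes were selected on these comparisons, nothing is read from the members' counts against those shares.

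**Figure D1:**
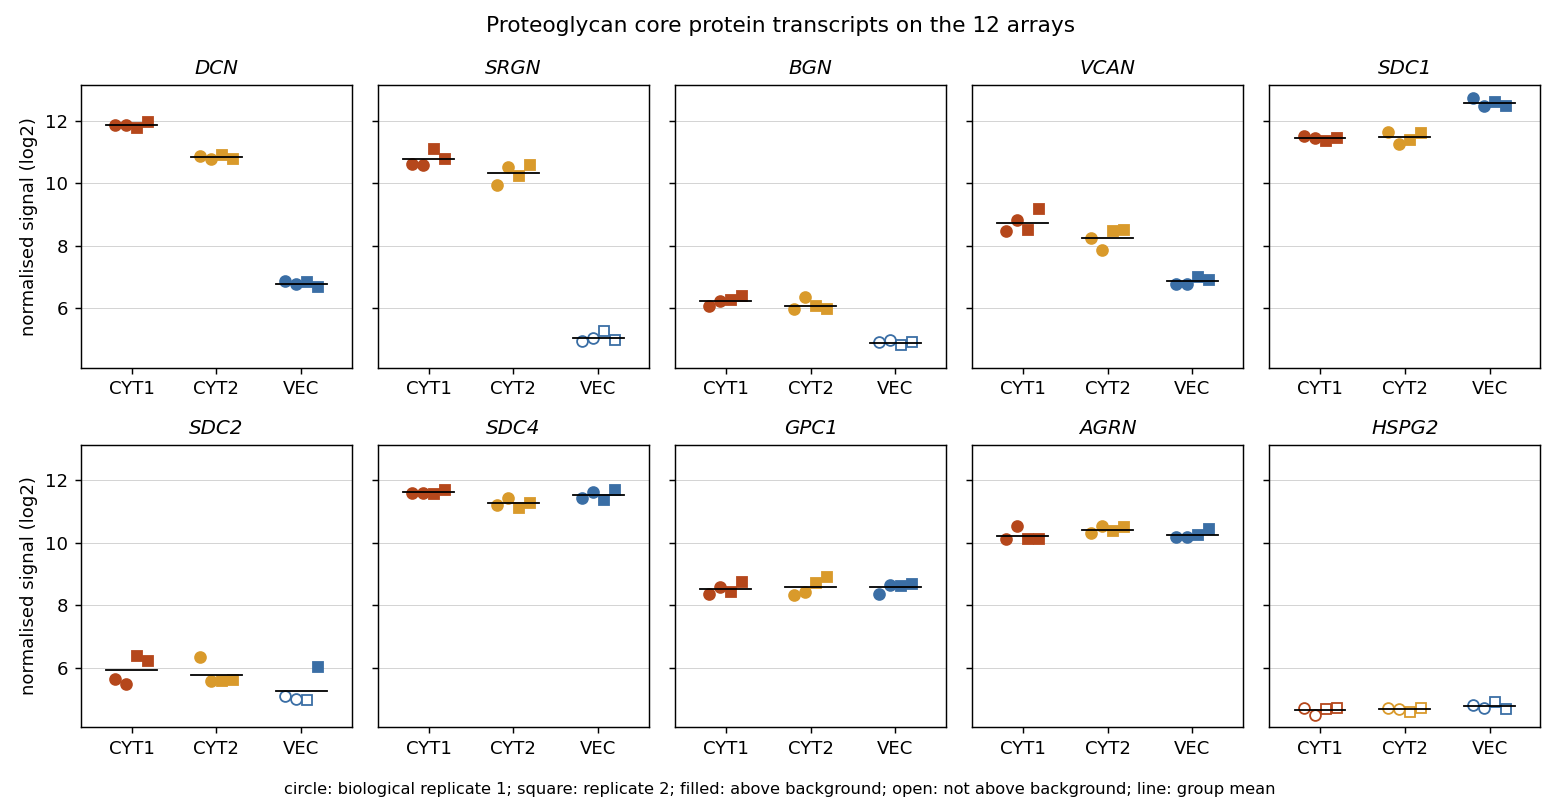
Normalised log2 signal of the 10 proteoglycan genes on each of the 12 arrays, by group, for the brightest probe of each gene (open points were not detected, lines are group means). DCN and SRGN lie above 9.9 on all CYT1 and CYT2 arrays and below 6.9 on all VEC arrays, SDC1 lies lower on all CYT1 and CYT2 arrays than on any VEC array, and HSPG2 is at background throughout.

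DCN, a small leucine-rich proteoglycan that binds collagen fibrils, transforming growth factor beta and receptor tyrosine kinases, had log2 signals of 11.86, 11.87, 11.76 and 11.95 on the 4 CYT1 arrays. Its 4 CYT2 arrays read 10.86, 10.79, 10.92 and 10.77, and its 4 VEC arrays read 6.86, 6.78, 6.84 and 6.68. No array of one group overlapped those of another, and the order was CYT1, then CYT2, then VEC. In raw bead signal the DCN probe ran from 3238 to 3878 in CYT1, from 1729 to 1988 in CYT2 and from 207 to 235 in VEC. DCN was 33.7-fold higher in CYT1 than in VEC, a log2 difference of 5.07 ± 0.08 (SE, n = 2 replicates a group). It was 16.5-fold higher in CYT2 than in VEC, a log2 difference of 4.05 ± 0.08. With the deposited values, which carry no background correction, the log2 differences of DCN were 4.04 in CYT1 and 3.07 in CYT2 against VEC.

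BGN, the small leucine-rich relative of DCN that binds collagen and Toll-like receptors, was dim. It had log2 signals of 6.08, 6.23, 6.27 and 6.39 in CYT1, 5.96, 6.35, 6.06 and 5.97 in CYT2, and 4.91, 4.96, 4.81 and 4.91 in VEC. All CYT1 and CYT2 arrays detected BGN and no VEC array did, and the ICD groups overlapped each other but not VEC. A probe not detected on any array of a group has only a bound there, so the fold was computed against the lowest detected signal of those arrays where that was higher than the probe's own. Such a bound holds only for the background-corrected values with the offset of 16. BGN was at least 1.67-fold higher in CYT1 and at least 1.5-fold higher in CYT2 than in VEC. The measured log2 differences were 1.34 ± 0.10 in CYT1 and 1.19 ± 0.10 in CYT2 against VEC, and 0.51 and 0.45 with the deposited values.

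SRGN, the granule core protein that packages proteases and chemokines, had log2 signals of 10.60, 10.60, 11.08 and 10.78 in CYT1 and of 9.94, 10.51, 10.23 and 10.57 in CYT2. On the 4 VEC arrays the SRGN probe read 4.95, 5.04, 5.25 and 4.97, and none of these was detected. All CYT1 values of SRGN lay above all CYT2 values, with the closest arrays at 10.60 and 10.57. SRGN was at least 38.6-fold higher in CYT1 than in VEC, with a measured log2 difference of 5.71 ± 0.14. It was at least 28.1-fold higher in CYT2 than in VEC, with a measured log2 difference of 5.26 ± 0.14. With the deposited values the log2 differences of SRGN were 3.68 in CYT1 and 3.28 in CYT2 against VEC.

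VCAN, a large chondroitin sulfate proteoglycan that binds hyaluronan, had log2 signals of 8.47, 8.81, 8.51 and 9.16 in CYT1. It read 8.23, 7.85, 8.47 and 8.49 in CYT2 and 6.76, 6.78, 6.995 and 6.91 in VEC. All 4 VEC arrays detected VCAN, and every CYT1 and CYT2 array was above all of them. VCAN was 3.68-fold higher in CYT1 (log2 difference 1.88 ± 0.17) and 2.64-fold higher in CYT2 (1.40 ± 0.17) than in VEC. With the deposited values its log2 differences were 1.18 in CYT1 and 0.84 in CYT2 against VEC.

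SDC1, the main syndecan of epithelia and a co-receptor for heparin-binding growth factors, was the one member called lower. Its log2 signals were 11.51, 11.43, 11.37 and 11.46 in CYT1 and 11.65, 11.25, 11.37 and 11.60 in CYT2. The 4 VEC arrays read 12.73, 12.49, 12.59 and 12.49, all above every CYT1 and CYT2 array. SDC1 was 2.19-fold lower in CYT1 (log2 difference -1.13 ± 0.08) and 2.15-fold lower in CYT2 (-1.11 ± 0.08) than in VEC. Its raw signals ran from 2487 to 2978 in CYT1, 2480.5 to 3326 in CYT2 and 5502 to 7684 in VEC.

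SDC2 and SDC4, the other two syndecans, were not called in any comparison. SDC2, a syndecan mostly known from mesenchymal cells, read 5.65, 5.47, 6.38 and 6.22 in CYT1, 6.35, 5.59, 5.59 and 5.61 in CYT2, and 5.10, 4.997, 4.97 and 6.02 in VEC. It was detected on 4 arrays of CYT1, 4 of CYT2 and 1 of VEC, and 1 VEC array lay within the range of the ICD groups. The log2 difference of SDC2 from VEC was 0.66 ± 0.28 in CYT1 and 0.51 ± 0.28 in CYT2. The CYT1 value was 0.29 without CYT1 replicate 2, 0.44 without VEC replicate 1 and 1.03 without CYT1 replicate 1, and the CYT2 value was 0.29 without VEC replicate 1 and 0.33 without CYT2 replicate 1. The CYT1 value passed the threshold in 4 of 19 alternatives and the CYT2 value in 0. SDC4, a focal adhesion syndecan, was detected on all 12 arrays, with 11.60, 11.60, 11.56 and 11.69 in CYT1, 11.22, 11.43, 11.11 and 11.29 in CYT2, and 11.44, 11.64, 11.37 and 11.71 in VEC. Its log2 difference from VEC was 0.08 ± 0.08 in CYT1 and -0.27 ± 0.08 in CYT2. The CYT1 value of SDC4 was negative under median scaling (-0.12) and with the deposited values (-0.11), and the CYT2 value passed the threshold in 8 of 20 alternatives.

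GPC1, the glypican anchored by glycosylphosphatidylinositol in many epithelia, had log2 signals from 8.36 to 8.75 in CYT1, 8.34 to 8.89 in CYT2 and 8.35 to 8.69 in VEC. Its log2 difference from VEC was -0.04 ± 0.16 in CYT1 and 0.02 ± 0.16 in CYT2. AGRN, a basement membrane heparan sulfate proteoglycan that clusters acetylcholine receptors at the neuromuscular junction, ran from 10.11 to 10.53 in CYT1, 10.31 to 10.54 in CYT2 and 10.18 to 10.44 in VEC. Its log2 difference from VEC was -0.05 ± 0.11 in CYT1 and 0.16 ± 0.11 in CYT2. The 3 groups overlapped for both genes, and neither was called. The signs were not stable for GPC1, whose CYT1 value was positive in 3 of 20 alternatives and whose CYT2 value was negative in 5, nor for AGRN in CYT1, positive in 3 of 20. HSPG2, the large basement membrane proteoglycan, was detected on 0 of 12 arrays, with detection p-values from 0.364 to 0.973 and raw signals from 103 to 132, so it was not tested.

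**Figure D2:**
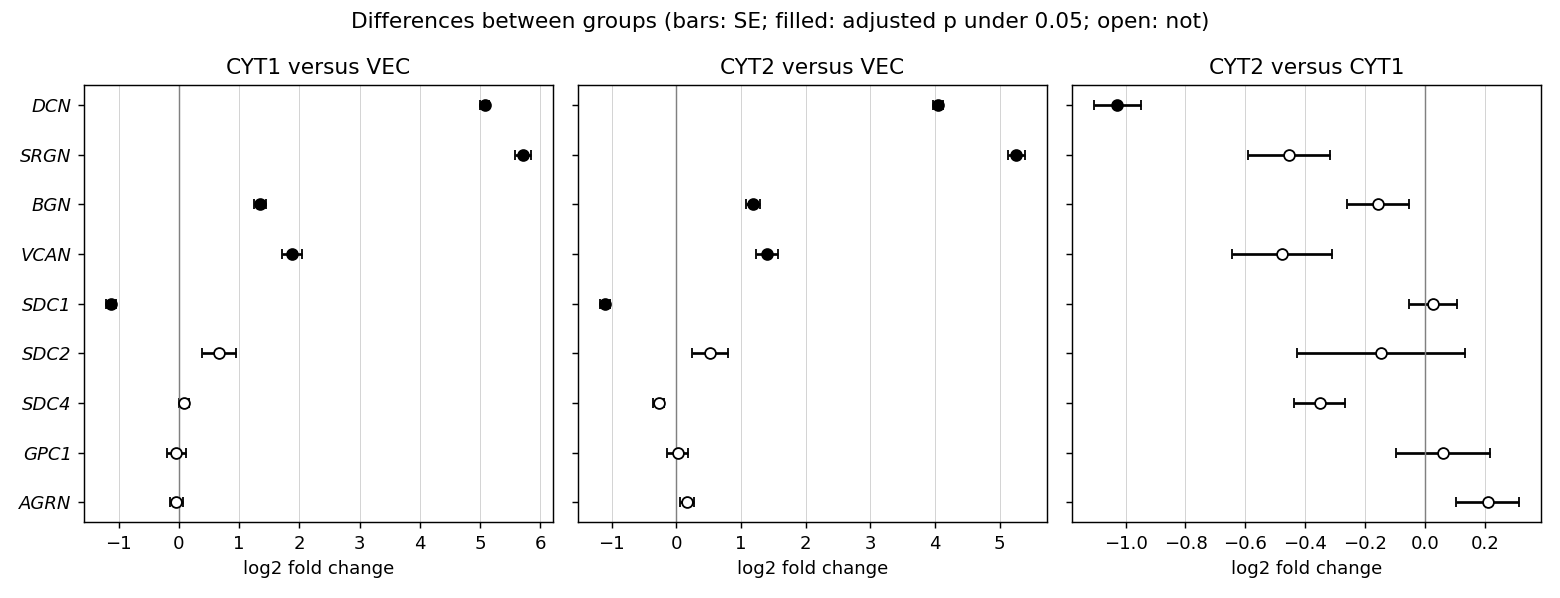
Log2 differences of the 9 tested proteoglycan genes for CYT1 against VEC, CYT2 against VEC and CYT2 against CYT1. SRGN and DCN lie above 4 in both comparisons with VEC, SDC1 lies near -1.1 in both, and GPC1 and AGRN lie between -0.05 and 0.21. Bars are the model's standard errors, and filled points were called.

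Between the forms, DCN was the one member called. Its log2 signal was lower in CYT2 than in CYT1 by a difference of -1.03 ± 0.08 (95% interval -1.22 to -0.84), which is 2.04-fold, with no overlap of the arrays. Over 20 alternatives the difference ran from -1.13 to -0.92, and the call held in 9 of them. On leaving out any 1 replicate the difference ran from -1.04 to -1.02 and the call was lost. The VEC samples enter this difference only through the model's estimate of spread, and it stayed at -1.03 without either VEC replicate. SRGN differed between CYT2 and CYT1 by -0.45 ± 0.14 (interval -0.79 to -0.12), VCAN by -0.48 ± 0.17 (interval -0.88 to -0.07) and SDC4 by -0.35 ± 0.08 (interval -0.56 to -0.15), and none of these was called. They passed the threshold in 3 (SRGN), 2 (VCAN) and 5 (SDC4) of 20 alternatives. The SRGN value was -0.62 without CYT1 replicate 1 and -0.29 without CYT1 replicate 2, and the VCAN value was -0.26 without CYT2 replicate 1 and -0.70 without CYT2 replicate 2. The arrays of CYT2 and CYT1 did not overlap for SRGN and SDC4 and overlapped for VCAN. For BGN the difference was -0.16 ± 0.10 (interval -0.41 to 0.09), for SDC2 -0.15 ± 0.28 (-0.83 to 0.54), for SDC1 0.03 ± 0.08 (-0.17 to 0.22), for GPC1 0.06 ± 0.16 (-0.32 to 0.44) and for AGRN 0.21 ± 0.11 (-0.05 to 0.47). These 5 intervals include 0. They rest on 2 replicates a group and on a spread that may be technical, so their ends do not bound the difference between the forms.

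Several members had more than 1 probe, and the probes did not all read alike. A second DCN probe averaged 10.36 ± 0.07 in CYT1, 9.17 ± 0.21 in CYT2 and 5.33 ± 0.26 in VEC (SD, n = 2), with 1 of 4 VEC arrays detected. It gave 5.03 ± 0.16 in CYT1 and 3.85 ± 0.16 in CYT2 against VEC, and -1.18 ± 0.16 in CYT2 against CYT1, which was not called. The other two DCN probes were near background, one detected on 1 array of CYT1, 1 of CYT2 and 0 of VEC and the other on 0 of 12. The second SRGN probe was at least 41.9-fold higher in CYT1 and at least 27.3-fold higher in CYT2 than in VEC, close to the first, and differed by -0.62 ± 0.09 between CYT2 and CYT1 without being called. SDC1 had 2 more probes that did not pass the filter, one detected on 1 array of CYT1, 2 of CYT2 and 2 of VEC and the other on none. The second AGRN probe was detected on none of the 12 arrays. The directions given for DCN thus rest on 2 of its 4 probes and those for SDC1 on 1 of 3.

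**Figure D3:**
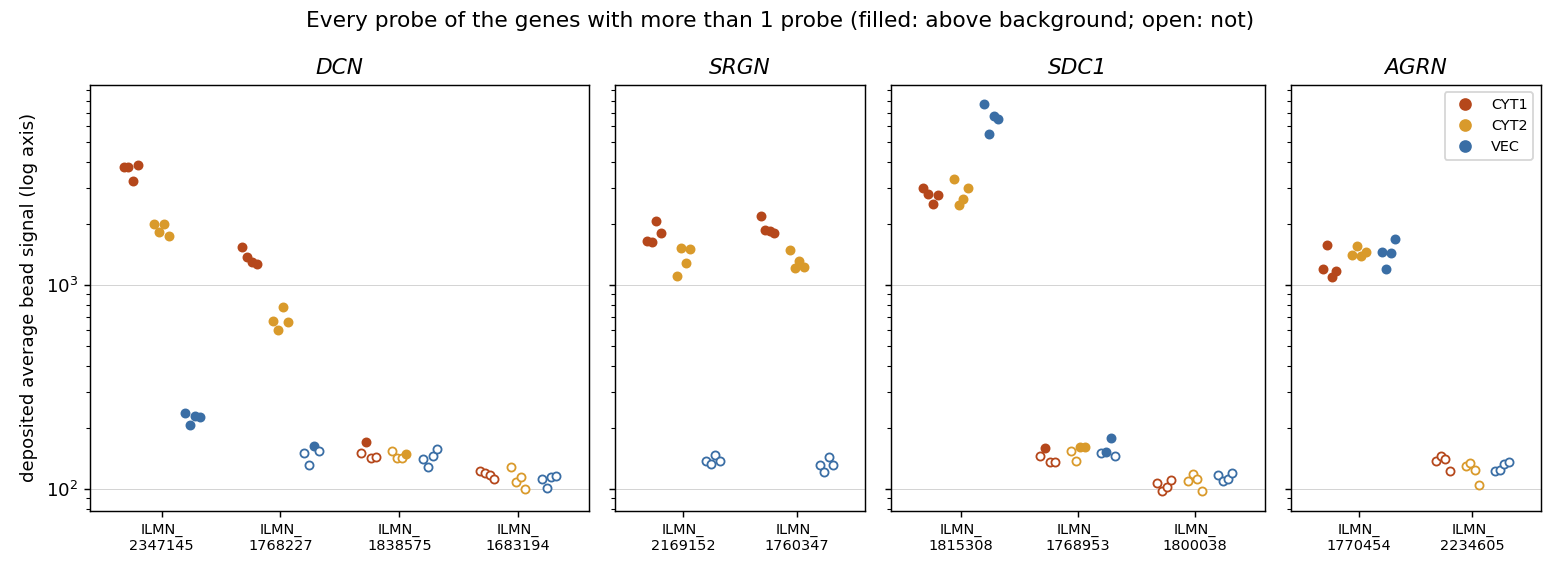
Deposited average bead signal (log axis) on the 12 arrays for every probe of DCN, SRGN, SDC1 and AGRN, the members with more than 1 probe. Both SRGN probes separate CYT1 and CYT2 from VEC, whereas 2 of 4 DCN probes and 2 of 3 SDC1 probes stay near background in all groups.

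Start-site sequences show what some of the members with a higher or lower signal have upstream. RefSeq (GRCh38.p14) promoter windows, from 250 bases before to 50 after a gene's start, were matched by symbol for 6 of the 10 members, BGN, VCAN, SDC1, SDC4, GPC1 and HSPG2. No window was matched for DCN, SRGN, SDC2 or AGRN, so the members with the largest rises, DCN and SRGN, are not covered. The windows of the 3 matched members that were called are given 5′ to 3′ on the gene's strand, at chrX:153494730-153495029 (plus strand) for BGN, chr5:83471494-83471793 (plus strand) for VCAN, and chr2:20225426-20225725 and chr2:20225081-20225380 (minus strand) for 2 starts of SDC1. Capitals mark the GC box, the motif bound by Sp1-type factors, as GGGCGG or its reverse complement CCGCCC.
BGN: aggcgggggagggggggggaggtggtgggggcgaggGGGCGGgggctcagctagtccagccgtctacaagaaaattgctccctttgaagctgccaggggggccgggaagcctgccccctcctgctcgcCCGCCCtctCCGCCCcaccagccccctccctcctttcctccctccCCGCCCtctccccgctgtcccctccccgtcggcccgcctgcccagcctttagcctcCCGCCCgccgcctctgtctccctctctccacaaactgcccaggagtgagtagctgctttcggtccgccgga
VCAN: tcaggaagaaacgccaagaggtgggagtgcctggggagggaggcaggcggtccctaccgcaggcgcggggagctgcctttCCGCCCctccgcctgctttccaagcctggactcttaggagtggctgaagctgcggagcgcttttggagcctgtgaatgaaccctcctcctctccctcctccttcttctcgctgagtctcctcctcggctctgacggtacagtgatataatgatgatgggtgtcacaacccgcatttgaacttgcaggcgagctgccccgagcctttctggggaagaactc
SDC1, first start: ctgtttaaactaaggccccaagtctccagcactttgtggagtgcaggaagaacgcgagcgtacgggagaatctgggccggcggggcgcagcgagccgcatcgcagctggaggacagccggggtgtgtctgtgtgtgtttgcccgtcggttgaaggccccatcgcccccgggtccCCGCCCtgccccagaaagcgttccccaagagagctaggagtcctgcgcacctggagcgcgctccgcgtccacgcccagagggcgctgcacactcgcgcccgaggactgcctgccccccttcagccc
SDC1, second start: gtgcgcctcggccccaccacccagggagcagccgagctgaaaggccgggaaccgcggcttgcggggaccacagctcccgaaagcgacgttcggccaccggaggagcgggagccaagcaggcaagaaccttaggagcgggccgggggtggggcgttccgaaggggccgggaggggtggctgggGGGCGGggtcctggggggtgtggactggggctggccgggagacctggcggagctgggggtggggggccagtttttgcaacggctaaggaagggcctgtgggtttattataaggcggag

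The BGN window held 5 GC boxes, while the windows of VCAN and of the 2 SDC1 starts held 1 each. SDC4 had 8, GPC1 had 4 and HSPG2 had 10, so windows of members that were not called held them too. A GC box on either strand occurred in 45% of all 35116 promoter windows. All windows were counted there, whereas the match of the members left out those on chromosome 8. The GC content was 71.7% for BGN, 60.3% for VCAN, and 67.7% and 70.7% for SDC1. None of the matched members' windows held a TATA box (TATAAA), an AP-1 element (TGANTCA), a TEAD element (GGAATG) or a STAT element (TTCNNNGAA), searched on both strands. GC boxes that overlap one another, as in GPC1 and HSPG2, were each counted. The other four motifs occurred in 11.5% (TATA), 7.71% (AP-1), 14% (TEAD) and 7.66% (STAT) of all windows. A match describes the letters of a window and is no binding site.

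For DCN and for SRGN, the genes with the most similar course over the 12 arrays were found by the root mean square difference of log2 values, each taken relative to its VEC mean, among 10370 other genes. This distance counts the size of the rise over VEC. By that rise SRGN ranked 1 in both comparisons, and DCN ranked 2 in CYT1 and 3 in CYT2, of 10371 genes. The nearest genes are therefore other genes with large rises, and they are given as a description. With background correction, the genes nearest to DCN were ACKR1, an atypical chemokine receptor, at 0.206, FBXO32, a muscle ubiquitin ligase subunit, at 0.318 and ANKRD1, a nuclear ankyrin repeat protein, at 0.723. Those nearest to SRGN were ACKR1 at 0.717, DCN at 0.825 and FBXO32 at 1.03. ACKR1, ANKRD1 and SRGN were detected on 0 of 4 VEC arrays, so they passed the detection filter only through CYT1 and CYT2. Their distances also depend on how signals near background are handled. With the deposited values, an alternative chosen after seeing the data, the genes nearest to DCN were FBXO32 at 0.200, SRGN at 0.313 and TAGLN, which binds actin in smooth muscle cells, at 0.539. Those nearest to SRGN were then FBXO32 at 0.194, DCN at 0.313 and TAGLN at 0.539, while ACKR1 lay at 0.736 from DCN. FBXO32 was among the 3 nearest genes of both in each setting tried and was detected on all 4 VEC arrays. It differed from VEC by 4.55 in CYT1 and 3.95 in CYT2 on the log2 scale, and by 3.74 and 3.17 with the deposited values. ACKR1 was at least 20.4-fold higher in CYT1 and at least 12.3-fold higher in CYT2 than in VEC, and ANKRD1 at least 12.2-fold and at least 6.94-fold. These bounds hold for the background-corrected values. With the deposited values the log2 differences from VEC in CYT1 and CYT2 were 2.98 and 2.38 for ACKR1, and 2.25 and 1.64 for ANKRD1.

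The gene lists from here on were chosen with earlier results of these data known. Their counts, shares and adjusted p-values are a description, and nothing is read from their shares against those of all probes. Other core proteins of the proteoglycan family were called in both directions. Of 40 further core protein genes on the array, 19 were detected on no array and 15 were tested. In CYT1 against VEC 6 of the 15 rose and 1 fell, with a median log2 difference of 0.26, and in CYT2 against VEC 6 rose and 1 fell, with a median of 0.19. That is 46.7% called in each comparison, beside 35.9% and 30.4% of all tested probes, and the median over all tested genes was -0.05 in each. Counted by gene, as the lists are, 1924 of 10371 tested genes were called higher and 2151 lower in CYT1 against VEC. In CYT2 against VEC 1665 genes were higher and 1822 lower. These shares of genes are above the shares of probes printed beside each list. COL18A1, the basement membrane collagen that yields endostatin, rose by a log2 difference of 1.88 ± 0.15 in CYT1 (limma adjusted p = 0.000447) and 1.76 ± 0.15 in CYT2 (0.000728), with 2 of 4 VEC arrays detected. With the deposited values its differences were 0.83 in CYT1 and 0.77 in CYT2, so its size depended on background correction. SPOCK1, a testican, rose by 1.25 ± 0.08 in CYT1 (limma adjusted p = 0.000223) and 0.88 ± 0.08 in CYT2 (0.00095). The glypicans GPC2 and GPC6 also passed the threshold in both comparisons. GPC2 rose by 0.68 ± 0.14 in CYT2 (limma adjusted p = 0.0135), and the call was lost without VEC replicate 2 (0.60) or CYT2 replicate 2 (0.53). It was also lost with technical arrays 2 alone (0.41, limma adjusted p = 0.218). GPC6 rose by 0.45 ± 0.11 in CYT1 (limma adjusted p = 0.0259), and the call was lost without VEC replicate 1 (0.38), VEC replicate 2 (0.52) or CYT1 replicate 2 (0.37). With technical arrays 2 alone the GPC6 call was lost too (0.31, limma adjusted p = 0.172). THBD, the thrombin receptor thrombomodulin, which can carry chondroitin sulfate, passed the detection filter only through the VEC arrays. It fell below detection on all CYT1 and CYT2 arrays and was at least 2.45-fold lower in CYT1 (limma adjusted p = 0.000223) and at least 2.48-fold lower in CYT2 (0.000257) than in VEC.

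Of 20 tested genes for enzymes that build the linker and the chondroitin or dermatan sulfate chains, 3 rose and 6 fell in CYT1 against VEC, and 2 rose and 7 fell in CYT2 against VEC, with medians of -0.07 and -0.18. That is 45% called in each comparison, beside 35.9% and 30.4% of all tested probes, which also had more lower than higher calls, and the difference between the directions was not tested. CHSY3, a chondroitin synthase, fell by 0.90 ± 0.11 on the log2 scale in CYT1 (limma adjusted p = 0.0019) and fell by 0.95 ± 0.11 in CYT2 (0.00199). UST, a uronyl 2-sulfotransferase, fell by 0.78 ± 0.08 in CYT1 (limma adjusted p = 0.0013) and fell by 1.0 ± 0.08 in CYT2 (0.000722). Of the linker glycosyltransferases, B3GALT6 fell by 0.65 ± 0.12 in CYT1 (limma adjusted p = 0.00846). That call was lost without VEC replicate 1 (-0.58) and with technical arrays 2 alone (-0.47, limma adjusted p = 0.137). B3GAT3 fell by 0.96 ± 0.11 in CYT2 (limma adjusted p = 0.00239), a call lost with technical arrays 1 alone (-0.68, adjusted p = 0.0678). PXYLP1, the xylose phosphatase that acts on the linker, rose by 1.20 ± 0.08 in CYT1 (limma adjusted p = 0.000243) and by 1.14 ± 0.08 in CYT2 (0.000378). With the deposited values the PXYLP1 differences were 0.64 in CYT1 and 0.61 in CYT2.

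Among 9 tested genes for hyaluronan, the chain that VCAN binds, 4 rose and 3 fell in each ICD group against VEC, with medians of -0.03 in CYT1 and 0.27 in CYT2. That is 77.8% called in each, beside 35.9% and 30.4% of all tested probes. HAS3, a hyaluronan synthase, fell by 1.88 ± 0.15 in CYT1 (limma adjusted p = 0.000471) and fell by 1.63 ± 0.15 in CYT2 (0.000995). HMMR, a hyaluronan receptor that also works on the mitotic spindle, rose by 2.30 ± 0.09 in CYT1 (limma adjusted p = 5.23e-05) and by 2.78 ± 0.09 in CYT2 (5.02e-05). Of the genes for hyaluronan breakdown, HYAL2 fell by 1.13 ± 0.09 in CYT1 (limma adjusted p = 0.000457) and fell by 0.65 ± 0.09 in CYT2 (0.0041). CEMIP, detected on 0 of 4 CYT1 arrays and on all 4 VEC arrays, was at least 2.26-fold lower in CYT1 (limma adjusted p = 0.000346) and fell by 0.99 ± 0.11 in CYT2 (0.00189), and its paralog CEMIP2 rose by 0.92 ± 0.10 in CYT1 (0.00147) and by 0.90 ± 0.10 in CYT2 (0.00205). With quantile scaling of uncorrected signals the CEMIP log2 differences were -0.59 in CYT1 and -0.40 in CYT2.

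Ligands and receptors that bind these proteoglycans were called in 9 of 14 tested genes in CYT1 against VEC, 7 higher and 2 lower, and in 8 of 14 in CYT2, 6 higher and 2 lower. The shares called were 64.3% in CYT1 and 57.1% in CYT2, beside 35.9% and 30.4% of all tested probes, and the medians were 0.37 in CYT1 and 0.21 in CYT2. CCN2, a matricellular growth factor, rose by 3.21 ± 0.08 in CYT1 (limma adjusted p = 2.98e-05) and by 2.96 ± 0.08 in CYT2 (4.63e-05). TGFB2, a transforming growth factor beta ligand that DCN can bind, rose by 2.17 ± 0.17 in CYT1 (limma adjusted p = 0.000437) and by 1.76 ± 0.17 in CYT2 (0.00116). With the deposited values the TGFB2 differences were 1.20 in CYT1 and 0.92 in CYT2. FN1, the fibronectin gene, rose by 1.85 ± 0.20 in CYT1 (limma adjusted p = 0.00127) and by 1.14 ± 0.20 in CYT2 (0.00856). The CYT2 call was lost without CYT2 replicate 2 (difference 1.05) and with technical arrays 2 alone (0.86, limma adjusted p = 0.0552). With the deposited values the FN1 differences were 0.80 in CYT1 and 0.44 in CYT2. EGFR, a receptor tyrosine kinase that DCN can bind, fell by 1.76 ± 0.08 in CYT1 (limma adjusted p = 0.000106) and fell by 1.25 ± 0.08 in CYT2 (0.000336).

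Proteases and inhibitors that cut or shed core proteins were called in 4 of 12 tested genes in CYT1 against VEC, 3 higher and 1 lower, and in 5 of 12 in CYT2, 3 higher and 2 lower. The shares called were 33.3% in CYT1 and 41.7% in CYT2, beside 35.9% and 30.4% of all tested probes, and the medians were 0.11 and -0.001. MMP7, a protease that can shed SDC1, fell by 1.67 ± 0.08 in CYT1 (limma adjusted p = 0.000122) and fell by 2.01 ± 0.08 in CYT2 (7.55e-05). MMP9, a gelatinase that SRGN can carry, rose by 1.77 ± 0.08 in CYT1 (limma adjusted p = 9.23e-05) and by 0.98 ± 0.08 in CYT2 (0.000712). It was also the one gene of the 6 pathway lists that differed between the forms, lower in CYT2 than in CYT1 by a log2 difference of -0.79 ± 0.08 (limma adjusted p = 0.0387). That call held in 8 of 20 alternatives. On leaving out any 1 replicate the difference ran from -0.83 to -0.75 and the call was lost. The VEC samples enter this difference only through the model's estimate of spread. CTSB, a lysosomal cathepsin, rose by 0.72 ± 0.08 in CYT1 (limma adjusted p = 0.00138) and by 0.55 ± 0.08 in CYT2 (0.00439), and BMP1, which cleaves the pro-forms of DCN and BGN, rose by 0.57 ± 0.09 in CYT1 (0.00586). The BMP1 call was lost with technical arrays 1 alone (0.54, limma adjusted p = 0.06). TIMP3, a matrix metalloproteinase inhibitor, fell by 0.55 ± 0.15 in CYT2 (limma adjusted p = 0.0366). The call was lost without VEC replicate 1 (-0.50), VEC replicate 2 (-0.60) or CYT2 replicate 1 (-0.34), and kept without CYT2 replicate 2 (-0.76). It was lost with technical arrays 1 (-0.33) or 2 (-0.77) alone. It was also lost without either CYT1 replicate, though the difference stayed at -0.55. The CYT1 samples enter that difference only through the model's estimate of spread.

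Of 17 genes for cargo or partners of SRGN-containing granules on the array, 10 were detected on no array and 4 were tested, MMP9 among them. In CYT1 against VEC 2 rose and 2 fell, and in CYT2 against VEC 2 rose and 1 fell, with medians of -0.08 and 0.33. The shares called were 100% and 75% of only 4 genes, beside 35.9% and 30.4% of all tested probes. CXCL8, a chemokine, fell by 0.57 ± 0.11 in CYT1 (limma adjusted p = 0.00923), a call lost without VEC replicate 1 (0.0525), and its difference in CYT2 was -0.13 (0.384). CXCL1, a second chemokine, rose by 0.79 ± 0.09 in CYT2 (limma adjusted p = 0.00206), a call lost with technical arrays 1 alone (0.59, adjusted p = 0.106). PLAT, the tissue plasminogen activator, fell by 0.72 ± 0.08 in CYT1 (limma adjusted p = 0.00162) and fell by 0.53 ± 0.08 in CYT2 (0.00579).

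**Figure D4:**
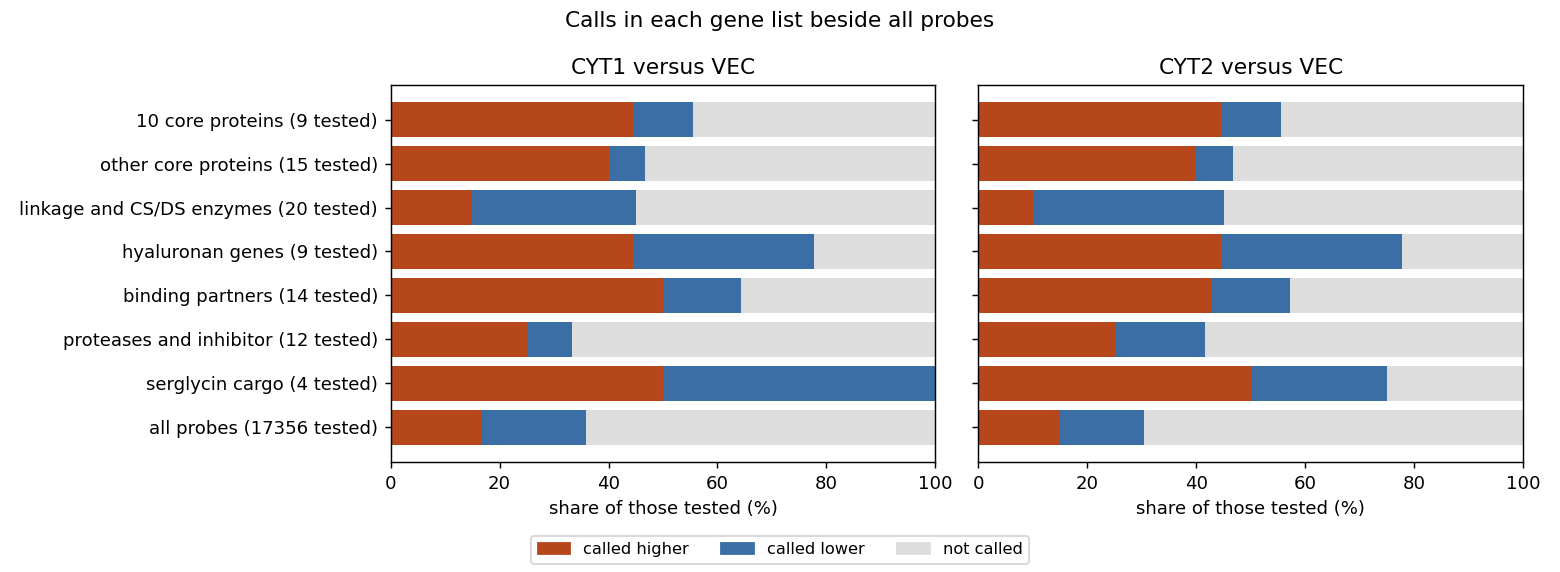
Share of tested genes (percent) called higher, called lower or not called against VEC (limma adjusted p under 0.05) in CYT1 and in CYT2, for the 10 core proteins, the 6 pathway lists and all 17356 tested probes. The lists count genes, each by its brightest probe, and the bar of all probes counts probes. Linkage, chondroitin and dermatan sulfate enzymes have 6 lower and 3 higher calls in CYT1 and 7 lower and 2 higher in CYT2, and other core proteins have 6 higher and 1 lower in both.

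DCN and SRGN are known from fibroblasts and from blood cells, so markers of other cell types were measured beside them. Of 16 fibroblast markers on the array, 8 were tested, and 5 rose and 1 fell in each ICD group against VEC. That is 75% called in each, beside 35.9% and 30.4% of all tested probes. FAP (3.15 in CYT1 and 2.59 in CYT2 on the log2 scale), COL6A3 (2.42 and 2.09), COL1A1 (1.51 and 1.01), FBLN1 (1.23 and 1.19) and TWIST1 (0.36 and 0.38) were higher, TWIST2 (-0.61 and -0.58) was lower, and VIM, the intermediate filament vimentin, differed by 0.12 and 0.06 without being called. The summed fibroblast marker signal ran from 27984 to 31211 in CYT1, from 27288 to 28960 in CYT2 and from 21964 to 22858 in VEC. The other markers on the list were COL1A2, which was tested and not called, PDGFRA, detected on 1 array, and COL3A1, LUM, PDGFRB, THY1, DPT, TCF21 and PRRX1, detected on none of the 12 arrays. Of 15 leukocyte and mast cell markers, 4 were tested. Of these, 2 rose and 1 fell in CYT1 and 3 rose in CYT2, again 75% called in each. The summed signal of the 15 markers ran from 1447 to 1647 in CYT1, from 1660 to 1799 in CYT2 and from 1585 to 1755 in VEC. PTPRC, HCLS1, CD48, CD3E and KIT were detected on no array. LCP1, an actin-bundling protein of blood cells, had the largest rise of the 4 tested markers, by 2.50 in CYT1 and 0.92 in CYT2. The lowest differences among the 4 were -0.75 in CYT1 and -0.11 in CYT2, and the medians were 0.40 and 0.67. Of 9 endothelial markers none was tested, and their summed signal ran from 252 to 313 in CYT1, 274 to 318 in CYT2 and 243 to 305 in VEC.

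Basal epithelial markers, which describe the labelled line, moved in both directions. In CYT1 against VEC 3 of 10 rose and 6 fell, and in CYT2 against VEC 2 rose and 4 fell. That is 90% called in CYT1 and 60% in CYT2, beside 35.9% and 30.4% of all tested probes. The keratins KRT5 (1.08 in CYT1 and 0.95 in CYT2 on the log2 scale) and KRT14 (1.60 and 0.51) rose, and the epithelial cadherin CDH1 (-0.63 and -0.42) fell. EPCAM, an epithelial adhesion molecule, fell by 0.80 in CYT1 and differed by -0.09 in CYT2 without a call. The summed basal marker signal ran from 24151 to 25561 in CYT1, from 25235 to 28080 in CYT2 and from 35656 to 37123 in VEC. Of 7 tested markers of luminal breast lines, 0 rose and 1 fell in CYT1, and 2 rose and 2 fell in CYT2. The shares called were 14.3% in CYT1 and 57.1% in CYT2, beside 35.9% and 30.4% of all tested probes. The log2 differences of these 7 markers ran from -0.61 to 0.36 in CYT1 and from -0.43 to 1.01 in CYT2. The part of these marker changes in the DCN, SRGN and SDC1 differences was not tested. In bulk RNA, fewer cells of a type and less RNA per cell cannot be told apart.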

How the data were processed

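Expression in 12 bead arrays of 3 groups (CYT1, CYT2 and VEC) was analysed from 2 tables. Per the file headers and the values, the authors deposited bead-averaged intensity for each probe of each array, without background subtraction or normalisation. Beside it the authors deposited a detection p-value for each probe and array, in steps of 1 in 770. The authors deposited log2 values in a second table with no processing stated. Each of its sample columns equalled log2 of exactly 1 signal column (largest difference 5e-09, next best 0.829 to 1.27), so scale and lack of centring are known and there is no ratio direction. This identity tied each detection column to its sample. RNA was purified with an RNeasy Plus kit and cRNA was biotin-labelled with TotalPrep reagents, per the labels' protocols. No source used here gives the scanner settings.

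Intensities went through neqc of limma 3.58.1 (R 4.3.3), which infers the negative controls from detection, subtracts background, adds an offset of 16, applies quantile normalisation and takes log2. The offset understates differences of dim probes. A probe was tested when both technical arrays detected it (p under 0.05) in 2 or more of the 6 replicates, which left 17356 probes, 13455 of them with a symbol. Of all 47323 probes, 30113 had 1 symbol, 8 had several and 17202 had none, and 30074 of the single symbols were found in RefSeq gene tables. Technical arrays were averaged, 1 model of the 3 groups was fitted (3 residual degrees of freedom, prior 3.07), and p-values were adjusted by Benjamini-Hochberg over all tested probes, two-sided. A gene is represented by its brightest probe. Log2 differences carry the model's standard error. The procedure was also run on simulated data with independent noise and few changed probes. That setting is unlike these data, so nothing is read from it here. The number of arrays limits the precision.

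All members and all their probes are named. From each pathway list and comparison with VEC, the 4 called genes with the largest difference whose arrays did not overlap are named, filled to 2 by smallest p, and for DCN and SRGN the 3 genes nearest in course. The members, lists and tests were chosen with earlier results of these data known. Figures used matplotlib 3.10.9 under Python 3.11.15. Alternatives covered background correction, scaling, offset, detection filter, technical arrays, replicate block, variance trend and leaving out each replicate.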

Additional observations from a re-analysis of the deposited data

Results flagged for a closer look

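In 4 of 33 sets of 4 arrays (a probe in a group), 1 array lay apart from the other three by Dixon's criterion, where chance gives about 1 set in 20. The second SRGN probe read 5.16 on 1 VEC array, against 4.82 to 4.85 on the other three, all below detection. SDC2 read 6.35 on 1 CYT2 array, against 5.59 to 5.61 on the others. SDC2 read 6.02 on 1 VEC array, against 4.97 to 5.10 on the others, and this was the array that detected it. AGRN read 10.53 on 1 CYT1 array, against 10.11 to 10.12 on the others.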

How the results depend on the processing

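The members called were 5 to 6 in each comparison with VEC over the alternatives, which is no independent support, since the members were selected on these comparisons. Over all probes, the calls in CYT1 against VEC (6229) were 3720 and 3931 with technical arrays 1 or 2 alone, and 3969 to 5688 on leaving out 1 replicate, with 3969 without VEC replicate 1 and 3994 without VEC replicate 2. In CYT2 against VEC (5272) they were 2972 and 2937 with technical arrays 1 or 2 alone, and 3020 to 4921 on leaving out 1 replicate, with 3020 and 3033 without VEC replicate 1 or 2, and 3094 and 3185 without CYT2 replicate 1 or 2. The CYT2 against CYT1 comparison (82 probes and 1 member called, 3029 probes at an unadjusted p under 0.05) depended on nearly every choice. Its calls over all probes were 995 with quantile scaling of uncorrected signals, 706 with the deposited values, 482 with an offset of 50, 377 with detection p under 0.01, 1094 with 12 arrays and the replicate as a random effect, 1089 with an intensity trend, 2 without a detection filter, 1 and 2 with technical arrays 1 or 2 alone, 3 with only both groups in the model, and 0 to 3 on leaving out 1 replicate. The members called there were 4 with quantile scaling of uncorrected signals, 4 with the deposited values, 3 with an intensity trend, 2 with 12 arrays and the replicate as a random effect, 0 without a filter, 0 with either technical array alone, 0 with only both groups in the model, and 0 to 0 on leaving out 1 replicate. Leaving out a VEC replicate cannot change the differences in CYT2 against CYT1, only the model's estimate of their spread. The cause of the moves in calls was not tested.

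Replicates of the same number did not pair: the correlations of their deviations were -0.01 for CYT1 and VEC, 0.0004 for CYT2 and VEC, and 0.02 for CYT2 and CYT1. With the replicate block, 2 probes and 0 members were called in CYT2 against CYT1, and the TIMP3 call in CYT2 against VEC was lost (limma adjusted p = 0.0573). Chosen after seeing the data, the technical number taken as the replicate gave 23 probes, and as a block over 12 arrays 932 probes and 2 members. A slide block was not run, since the headers used give no slide. The distances of genes from DCN and SRGN were the same in order under median scaling and differed where no background was subtracted. Dim probes near background (BGN, SDC2) limit the folds that can be measured, and 2 replicates a group limit the comparison between the forms.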
